A study of Mus musculus with 12 samples.

Results

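The 10 genes of triglyceride storage and lipolysis studied here were Plin2, Hilpda, Dgat1, Dgat2, Lpin1, Pnpla2, Mgll, Lpl, Fabp4 and Fabp5, followed in BMDMs, that is, in macrophages grown in culture from mouse bone marrow. They were taken by symbol, and all 10 of 10 were found, once each, among the 55335 genes of the expression table. RNA sequencing had been made of 12 libraries in 4 groups of 3, namely wild-type and Nlrp3-/- BMDMs, each as unstimulated control or after lipopolysaccharide followed by ATP (LPS+ATP). LPS, a bacterial product, readies the cell to form NLRP3 inflammasomes, and their assembly is set off by ATP acting on the receptor P2X7R. The BMDMs came from C57BL/6 mice aged 8 weeks and were grown with M-CSF at 40 ng/ml for 7 days, and the knockout was of the whole animal. The wild-type and the knockout mice came from different suppliers. The methods describe 12 hours of LPS (200 ng/ml) and 2 hours of ATP (3 mM), whereas the labels give 4 hours and 30 minutes. Nothing in the labels says whether the 3 libraries of a group came from separate mice or cultures, so each p-value measures the spread between these libraries, which may be technical.

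A macrophage takes up fatty acids that lipoprotein lipase frees from lipoproteins, carries them in the cytosol on fatty acid-binding proteins, and joins them to glycerol to make triglyceride. The triglyceride is kept in lipid droplets coated with perilipins, and a chain of lipases releases the fatty acids again for oxidation, membrane synthesis or lipid mediators. Macrophages that hold many droplets are known as foam cells, and droplets also form when macrophages meet bacterial products.

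The deposited unit was FPKM, which counts fragments relative to the gene's length and to the library's mapped total, so levels of different genes are compared per length. All 4 groups entered a single limma model of log2(FPKM + 1), run on the 12622 genes that reached 1 FPKM in 3 or more libraries. All 10 genes passed this filter. A gene counted as differentially expressed (a DEG) when its p, adjusted by Benjamini-Hochberg over all tested genes, was under 0.05 and its log2 fold change was 1 or more in size. Folds written as "2.20-fold" are ratios of mean FPKM, while log2 values are those of FPKM + 1 and come out too small for weakly expressed genes.

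The labels were checked on the targeted gene. In wild-type libraries Nlrp3 stood at 9.68 ± 0.425 FPKM (SD, n = 3) in control and 32.9 ± 0.801 FPKM with LPS+ATP, and it was listed at 0 in all 6 Nlrp3-/- libraries. Xist was 53.8 ± 2.58 FPKM in Nlrp3-/- control and 33.4 ± 0.469 FPKM in Nlrp3-/- LPS+ATP libraries and at most 0.0416 FPKM in the 6 wild-type libraries, so donor sex moved with genotype, and they cannot be told apart. Nnt was 9.38 ± 1.47 and 4.23 ± 0.172 FPKM in wild-type control and LPS+ATP libraries. In the Nlrp3-/- libraries it was 1.16 ± 0.323 and 0.893 ± 0.197 FPKM, without overlap in either state. The supplier of the mice differed with genotype too, so strain background may also move with genotype, which was not tested. The macrophage markers Adgre1, Csf1r, Cd68, Itgam, Mertk and Fcgr1 summed to between 1368 and 2207 FPKM in every library. Of the 6 adipocyte markers, 0 reached a mean of 1 FPKM in any group, their sum was at most 0.447 FPKM in a library, and Lep and Cidec were listed at 0 throughout, so the defining adipocyte markers were at or near 0. In RNA of whole cultures, fewer cells of a type and less RNA per cell cannot be told apart.

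In wild-type control BMDMs the most abundant of the 10 transcripts per length was Fabp5, at 425 ± 17.1 FPKM (SD, n = 3), followed by Plin2 at 184 ± 4.52 and Lpl at 179.6 ± 16.7 FPKM, whose library ranges overlapped. Fabp4 came next at 42.6 ± 0.922 FPKM and Pnpla2 at 25.6 ± 2.59 FPKM, then Hilpda and Mgll with overlapping ranges. The least abundant were Dgat1, Lpin1 and Dgat2, in that order and without overlap, the last at 0.634 ± 0.0604 FPKM. After LPS+ATP the order had changed in wild-type BMDMs. Fabp5 and Plin2 still led, Hilpda and Lpl overlapped in the next place, Dgat2 lay above Dgat1, and Lpin1 was last at 0.603 ± 0.118 FPKM. In Nlrp3-/- BMDMs with LPS+ATP the ranges of Fabp5 and Plin2 overlapped, as did those of Hilpda and Lpl, and Lpin1 and Mgll shared the lowest place.

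The 10 genes together summed to between 889 and 896 FPKM in the wild-type control libraries and between 268 and 276 FPKM with LPS+ATP. The sums in the Nlrp3-/- libraries were 738 to 757 FPKM in control and 250.7 to 255 FPKM with LPS+ATP. Each group of libraries was thus apart from the other groups. Fabp5 alone made up 45.6% to 49.0% of the sum in wild-type control libraries, 36.8% to 38.2% in Nlrp3-/- control libraries and 32.3% to 34.5% after stimulation in either genotype.

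**Figure D1:**
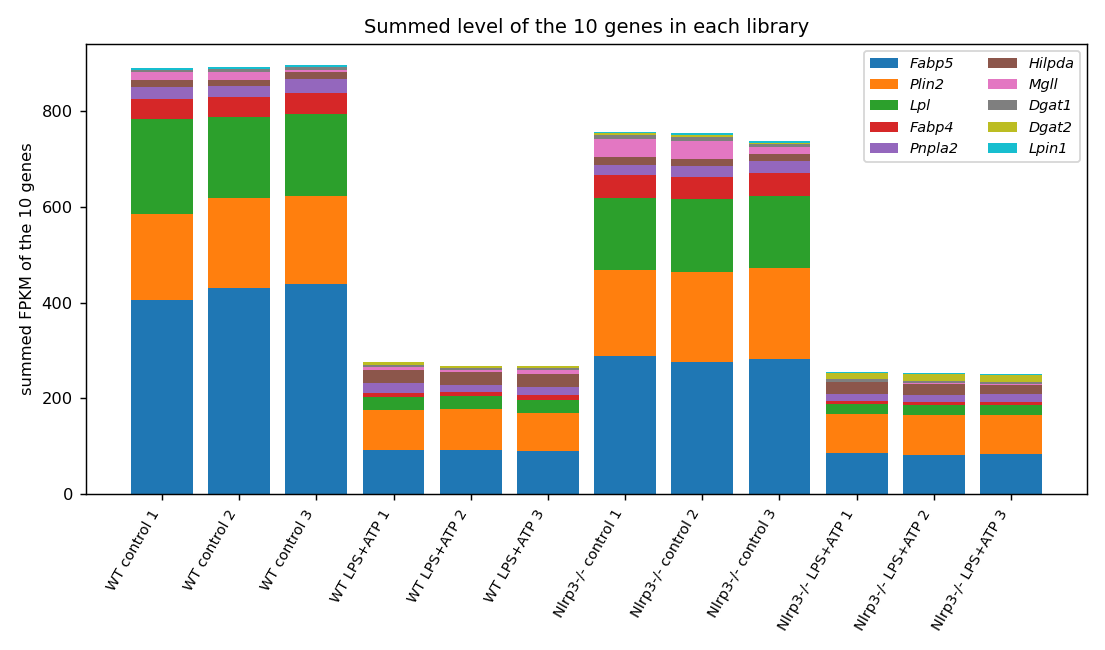
Summed FPKM of the 10 genes in each of the 12 libraries, as bars stacked by gene, with the FPKM on the y axis from 0. The 6 stimulated libraries reach 250.7 to 276 FPKM and the 6 control libraries 738 to 896 FPKM.

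**Figure D2:**
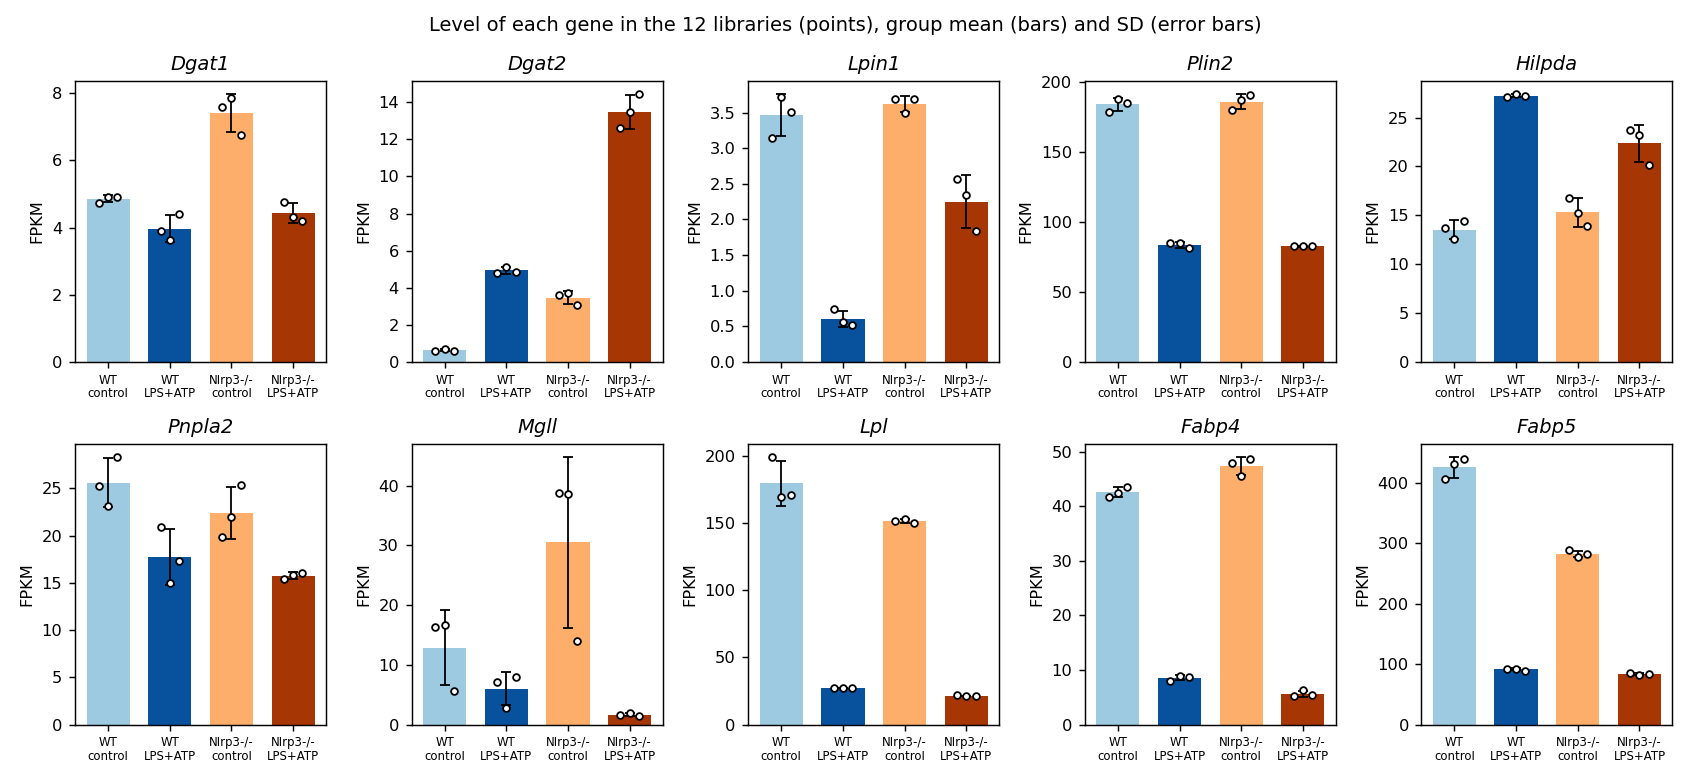
FPKM of each of the 10 genes in the 4 groups, one panel a gene with its own y axis from 0. Points are libraries, bars are group means and error bars are the SD over 3 libraries. Hilpda and Dgat2 are higher after LPS+ATP in both genotypes, the other 8 genes have lower means, and the points of Mgll are widely spread in 3 of the 4 groups.

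With LPS+ATP, 5 of the 10 genes fell and 1 rose in wild-type BMDMs. Those that fell were Lpl, Fabp5, Fabp4, Lpin1 and Plin2, and Dgat2 rose. Over all tested genes 11.2% were DEGs in the lower direction and 8.25% in the higher direction in this comparison. At adjusted p under 0.05 without the fold limit, 7 of the 10 genes were lower and 2 higher, where 53.1% of all tested genes were lower and 23.3% higher (76.4% in all). The median log2 fold change of the 10 genes was -1.04, and that of all tested genes -0.26.

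In Nlrp3-/- BMDMs LPS+ATP also left 5 of the 10 genes lower and 1 higher as DEGs. Mgll, Fabp4, Lpl, Fabp5 and Plin2 fell, and Dgat2 rose. The background was 8.21% of tested genes lower and 6.64% higher. Without the fold limit all 10 passed, 8 lower and 2 higher, where 53.8% of all tested genes were lower and 20.6% higher (74.3% in all). The median log2 fold change was -0.89 for the 10 genes and -0.24 for all tested genes.

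Between genotypes fewer of the genes differed. In control BMDMs, Dgat2 was the 1 DEG and was higher in Nlrp3-/- cells, where 6.02% of all tested genes were DEGs higher and 0.689% lower. With LPS+ATP, Dgat2 and Lpin1 were higher and Mgll was lower in Nlrp3-/- cells, against 4.48% of all tested genes higher and 0.57% lower. At adjusted p under 0.05 alone, 4 of the 10 genes differed in control (2 higher, 2 lower) and 7 with LPS+ATP (2 higher, 5 lower), where 47.8% and 48.5% of all tested genes did. Of all tested genes, 33.3% were higher and 14.5% lower in control at that threshold, and 35.9% higher and 12.6% lower with LPS+ATP. The interaction term, the response of Nlrp3-/- minus the response of wild-type BMDMs, reached the DEG limits for Mgll, which lay lower, against 1.43% of tested genes lower and 0.721% higher. It passed at adjusted p under 0.05 alone for 6 of the 10 genes, 2 higher and 4 lower, where 27.7% of all tested genes passed (14.7% higher, 13% lower). The 2 stimulation comparisons contrast the means of different libraries, but each shares its libraries with the genotype comparisons. All comparisons also share a single estimate of the spread, made from all libraries, so their SEs and p-values are not independent.

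Some markers of other cell types moved with genotype and stimulation. Summed fibroblast markers (6 genes, collagens among them) were 157 to 162 FPKM in wild-type control and 1165 to 1182 FPKM in Nlrp3-/- control libraries, and 181 to 183 against 891 to 907 FPKM with LPS+ATP. Summed neutrophil markers (7 genes) were 241 to 274 against 1420 to 1468 FPKM in control and 91.6 to 108 against 417 to 445 FPKM with LPS+ATP. No fibroblast or neutrophil marker was listed at 0 in all libraries of a group. Ly6g, however, did not pass the filter, with means of 0.0409 FPKM in wild-type control and 0.548 FPKM in Nlrp3-/- control libraries. S100a8 and S100a9 made up most of the neutrophil sum in Nlrp3-/- control libraries, at 379 and 862 FPKM. The summed macrophage markers were 2144 to 2207 FPKM in wild-type control and 1424 to 1444 FPKM in Nlrp3-/- control libraries. With LPS+ATP they were 1798 to 1834.5 against 1368 to 1387 FPKM. Cd68 held most of this sum, at 1450 ± 27.0 FPKM in wild-type control and 877 ± 10.7 FPKM in Nlrp3-/- control libraries. Adgre1, Csf1r and Fcgr1 were also lower in Nlrp3-/- control libraries, while Mertk was slightly higher (34.1 against 32.4 FPKM). Both entries of Itgam, each counted in the sum, overlapped between genotypes. The part of these markers in the results for the 10 genes was not tested.

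The droplet coat gene Plin2 (ENSMUSG00000028494, GRCm38 chr4:86648386-86670060, minus strand) encodes perilipin 2, which covers lipid droplets in most cells and shields their triglyceride from lipases. It stood at 179, 188 and 185 FPKM in the wild-type control libraries and at 84.8, 84.9 and 81.3 FPKM with LPS+ATP. In the Nlrp3-/- libraries it stood at 180.0, 187 and 190.5 FPKM in control and at 82.5, 82.8 and 82.5 FPKM with LPS+ATP. All 6 stimulated libraries lay far below all 6 control libraries, and the FPKM of the genotypes overlapped in either state. Plin2 fell 2.20-fold in wild-type BMDMs (log2 fold change -1.13, SE 0.03, adjusted p = 2.66e-11) and 2.25-fold in Nlrp3-/- BMDMs (-1.16, SE 0.03, adjusted p = 2.74e-11). With median-ratio scaling of the libraries both falls ended under the DEG limit of 1, at -0.81 and -0.86, and with upper-quartile scaling the wild-type fall did, at -0.95. Between genotypes the log2 differences were 0.01 (SE 0.03, adjusted p = 0.737) in control and -0.02 (SE 0.03, adjusted p = 0.666) with LPS+ATP, on the FPKM as deposited. Other scalings gave differences that passed the adjusted p, with Nlrp3-/- lower. They were -0.18 in control (adjusted p = 0.000816) and -0.23 with LPS+ATP (adjusted p = 0.000144) under median-ratio scaling, and -0.14 with LPS+ATP (adjusted p = 0.00396) under upper-quartile scaling. Its libraries were also among the most alike, with a pooled SD within groups of 0.0324 on the log2 scale, above 2.96% of the tested genes.

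Hilpda (ENSMUSG00000043421, GRCm38 chr6:29272488-29275446, plus strand) encodes a small hypoxia-inducible droplet protein that binds and inhibits adipose triglyceride lipase, the product of Pnpla2. It stood at 13.7, 12.5 and 14.4 FPKM in wild-type control and 27.1, 27.4 and 27.25 FPKM in wild-type LPS+ATP libraries. The Nlrp3-/- libraries gave 16.8, 15.2 and 13.9 FPKM in control and 23.7, 23.2 and 20.2 FPKM with LPS+ATP. The stimulated libraries were the higher ones in both genotypes, by 2.01-fold in wild-type (log2 fold change 0.96, SE 0.08, adjusted p = 3.61e-07) and 1.46-fold in Nlrp3-/- BMDMs (0.52, SE 0.08, adjusted p = 7.66e-05). Neither reached the fold limit of a DEG. The wild-type value passed it with a pseudocount of 0.1 (1.01), with TPM (1.04), with both other scalings (1.27 and 1.13) and without wild-type control replicate 3 (1.00). After LPS+ATP, Hilpda was 1.22-fold lower in Nlrp3-/- than in wild-type BMDMs without overlap (log2 difference -0.28, SE 0.08, adjusted p = 0.0103), and the response was smaller in Nlrp3-/- BMDMs (interaction -0.44, SE 0.11, adjusted p = 0.0104).

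RefSeq promoter windows of build GRCm38.p6, from 250 bases before to 50 after a transcription start, held 5 of the 10 genes (Hilpda, Lpin1, Mgll, Plin2 and Pnpla2). Of these, 3 are printed, for the pair of droplet genes that went opposite ways with LPS+ATP and for Lpin1, whose response differed between genotypes. Capitals mark the letters of the searched motifs on either strand.
Plin2 promoter, chr4:86670010-86670309, minus strand: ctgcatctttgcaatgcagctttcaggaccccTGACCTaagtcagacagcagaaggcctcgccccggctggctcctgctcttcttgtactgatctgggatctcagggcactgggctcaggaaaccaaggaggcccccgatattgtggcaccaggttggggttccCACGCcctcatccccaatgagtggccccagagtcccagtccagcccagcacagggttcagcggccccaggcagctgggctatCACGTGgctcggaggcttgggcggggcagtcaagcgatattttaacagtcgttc
Hilpda promoter, chr6:29272376-29272675, plus strand: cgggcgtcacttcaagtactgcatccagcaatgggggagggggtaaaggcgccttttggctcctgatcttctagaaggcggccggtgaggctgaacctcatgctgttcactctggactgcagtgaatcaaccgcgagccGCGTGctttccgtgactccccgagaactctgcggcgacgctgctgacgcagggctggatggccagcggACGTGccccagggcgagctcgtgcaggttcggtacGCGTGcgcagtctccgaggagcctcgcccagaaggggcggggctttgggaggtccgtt
Lpin1 promoter, chr12:16610917-16611216, minus strand: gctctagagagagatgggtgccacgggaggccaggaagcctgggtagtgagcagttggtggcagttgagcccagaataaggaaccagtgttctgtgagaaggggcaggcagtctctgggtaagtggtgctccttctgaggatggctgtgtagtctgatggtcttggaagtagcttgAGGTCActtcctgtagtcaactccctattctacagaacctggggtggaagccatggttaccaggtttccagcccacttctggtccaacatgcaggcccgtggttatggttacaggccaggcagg
The hypoxia response cores ACGTG and GCGTG were searched on both strands, and ACGTG was in windows of Hilpda, Mgll and Plin2, where 19.6% of all 32851 windows of that length held it. GCGTG was in windows of the same 3 genes and in 32.4% of all windows. In Plin2 the letters CACGTG read as ACGTG on both strands, 4 and 3 bases before the start, and CACGC is GCGTG on the other strand. AGGTCA, a motif bound by nuclear receptors, was in the windows of Plin2, there as TGACCT on the printed strand, and Lpin1, and in 16.3% of all windows. TCACGTGA, the CLEAR motif, which holds ACGTG, and GGGACTTTC, a part of the kappa B motif, were in 0 of the 7 windows of these genes and in 0.974% and 0.353% of all windows. A match is a run of letters and was not tested as a site.

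Dgat2 (ENSMUSG00000030747, GRCm38 chr7:99153658-99182719, minus strand) encodes diacylglycerol acyltransferase 2, which makes triglyceride at growing lipid droplets. Its FPKM was 0.611, 0.702 and 0.587 in wild-type control and 4.82, 5.14 and 4.84 in wild-type LPS+ATP libraries. Values in the Nlrp3-/- libraries were 3.62, 3.74 and 3.05 FPKM in control and 12.6, 13.5 and 14.4 FPKM with LPS+ATP. The 4 groups did not overlap in any of the comparisons, and the Nlrp3-/- control libraries lay between the wild-type control and the wild-type stimulated libraries. Dgat2 rose with LPS+ATP 7.79-fold in wild-type (log2 fold change 1.86, SE 0.07, adjusted p = 4.52e-10) and 3.88-fold in Nlrp3-/- BMDMs (1.70, SE 0.07, adjusted p = 1.41e-09). It was 5.48-fold higher in Nlrp3-/- than in wild-type BMDMs in control (1.45, SE 0.07, adjusted p = 1.59e-08) and 2.73-fold higher with LPS+ATP (1.29, SE 0.07, adjusted p = 5.63e-08). Whether its response differed between genotypes changed with the handling of low values, and its wild-type control libraries lay below 1 FPKM. The interaction was -0.16 (SE 0.10, adjusted p = 0.251) with a pseudocount of 1, -0.85 (adjusted p = 0.00068) with a pseudocount of 0.1 and -0.60 (adjusted p = 0.00345) with TPM.

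Dgat1 (ENSMUSG00000022555, GRCm38 chr15:76502015-76511953, minus strand) encodes the other diacylglycerol acyltransferase, an enzyme of the endoplasmic reticulum. It stood at 4.74, 4.90 and 4.93 FPKM in wild-type control and 3.89, 3.62 and 4.40 FPKM in wild-type LPS+ATP libraries. Values in Nlrp3-/- BMDMs were 7.59, 7.85 and 6.77 FPKM in control and 4.76, 4.33 and 4.21 FPKM with LPS+ATP. Nlrp3-/- control libraries were the highest, and after LPS+ATP the genotypes overlapped. Stimulated BMDMs had 1.22-fold less Dgat1 in wild-type (log2 fold change -0.24, SE 0.07, adjusted p = 0.0083) and 1.67-fold less in Nlrp3-/- cells (-0.63, SE 0.07, adjusted p = 8.02e-06), both under the fold limit. The direction in wild-type BMDMs turned with median-ratio scaling, to 0.02 (adjusted p = 0.816). In control, Dgat1 was 1.53-fold higher in Nlrp3-/- BMDMs (0.52, SE 0.07, adjusted p = 8.08e-05), also under the limit, and the interaction was -0.39 (SE 0.10, adjusted p = 0.0126).

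Lpin1 (ENSMUSG00000020593, GRCm38 chr12:16535669-16610966, minus strand) encodes lipin 1, the phosphatidate phosphatase that supplies diacylglycerol to both acyltransferases and also acts in the nucleus as a transcriptional coregulator. Its FPKM was 3.14, 3.73 and 3.51 in wild-type control libraries and 0.737, 0.560 and 0.513 in wild-type LPS+ATP libraries. Nlrp3-/- BMDMs had 3.70, 3.49 and 3.69 in control and 2.57, 2.35 and 1.84 with LPS+ATP. The control libraries of both genotypes overlapped, while the stimulated libraries were lower in each genotype and lowest in wild-type BMDMs. Lpin1 fell 5.74-fold in wild-type BMDMs (log2 fold change -1.48, SE 0.09, adjusted p = 3.19e-08), and was 1.61-fold lower in Nlrp3-/- BMDMs (-0.51, SE 0.09, adjusted p = 0.000285), under the fold limit. The interaction was 0.96 (SE 0.13, adjusted p = 0.000207) and passed the DEG limits with a pseudocount of 0.1 (1.67), TPM (1.46) and median-ratio scaling (1.04). After LPS+ATP, Lpin1 was 3.73-fold higher in Nlrp3-/- than in wild-type BMDMs (1.02, SE 0.09, adjusted p = 2.74e-06). This difference lay at the fold limit, and went under it with median-ratio scaling (0.94), with upper-quartile scaling (0.97) and without wild-type LPS+ATP replicate 2 (0.998) or 3 (0.98) or Nlrp3-/- LPS+ATP replicate 1 (0.95) or 2 (0.99).

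Pnpla2 (ENSMUSG00000025509, GRCm38 chr7:141455198-141460743, plus strand) encodes adipose triglyceride lipase, which takes the first fatty acid from stored triglyceride. It stood at 25.3, 23.1 and 28.3 FPKM in wild-type control and 20.9, 14.9 and 17.3 FPKM in wild-type LPS+ATP libraries. In the Nlrp3-/- libraries it stood at 19.8, 21.96 and 25.3 FPKM in control and 15.4, 15.8 and 16.1 FPKM with LPS+ATP. Stimulated libraries were lower in each genotype without overlap, and the genotypes overlapped in both states. The log2 fold change was -0.51 (SE 0.12, adjusted p = 0.00178) in wild-type and -0.47 (SE 0.12, adjusted p = 0.0032) in Nlrp3-/- BMDMs, under the fold limit. With median-ratio scaling these became -0.21 (adjusted p = 0.12) and -0.19 (adjusted p = 0.167). Between genotypes the differences did not pass, at -0.19 (SE 0.12, adjusted p = 0.21) in control and -0.15 (SE 0.12, adjusted p = 0.32) with LPS+ATP, except with median-ratio scaling, which gave -0.38 (adjusted p = 0.0173) and -0.36 (adjusted p = 0.0223).

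Mgll (ENSMUSG00000033174, GRCm38 chr6:88724412-88828360, plus strand) encodes monoacylglycerol lipase, which ends triglyceride breakdown and also degrades the endocannabinoid 2-arachidonoylglycerol. It stood at 16.3, 16.6 and 5.61 FPKM in wild-type control and 7.19, 2.85 and 7.92 FPKM in wild-type LPS+ATP libraries. The Nlrp3-/- libraries held 38.8, 38.6 and 14.02 FPKM in control and 1.58, 1.92 and 1.45 FPKM with LPS+ATP. In 3 of the 4 groups 1 library was far below the other pair, namely wild-type control replicate 3, wild-type LPS+ATP replicate 2 and Nlrp3-/- control replicate 3. The pooled SD within groups was 0.666 on the log2 scale, above that of 99.4% of the tested genes, whose median was 0.0882. In GENCODE release M21 the gene had 10 transcripts of 443 to 3991 bases and overlapped the antisense gene Gm26588 and 4 further unvalidated loci, and the part of these in the spread was not tested.

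Mgll fell 18.5-fold with LPS+ATP in Nlrp3-/- BMDMs (log2 fold change -3.44, SE 0.47, adjusted p = 4.83e-05), without overlap. In wild-type BMDMs the stimulated and control libraries overlapped, and the difference of -0.95 (SE 0.47) missed the threshold at adjusted p = 0.088. Without wild-type control replicate 3 it was -1.42 and passed (adjusted p = 0.0143), and without wild-type LPS+ATP replicate 2 it was -0.56 (adjusted p = 0.31). The interaction of -2.49 (SE 0.67, adjusted p = 0.0171) passed, and ranged from -2.96 to -2.03 as each library was left out. In stimulated BMDMs, Mgll was 3.63-fold lower in Nlrp3-/- cells (-1.31, SE 0.47, adjusted p = 0.0394). That call was lost without wild-type LPS+ATP replicate 1 (adjusted p = 0.115) or 3 (adjusted p = 0.126), without Nlrp3-/- LPS+ATP replicate 1 (adjusted p = 0.086), 2 (adjusted p = 0.0674) or 3 (adjusted p = 0.0938), and without the filter on low values (adjusted p = 0.0986). In control BMDMs Mgll stood higher in Nlrp3-/- cells by 1.18 (SE 0.47, adjusted p = 0.0596), with overlapping libraries. This passed without Nlrp3-/- control replicate 3 (1.65, adjusted p = 0.0121) and, with the same difference, without wild-type LPS+ATP replicate 2 (adjusted p = 0.045). Without wild-type control replicate 3 it was 0.72 (adjusted p = 0.223).

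**Figure D3:**
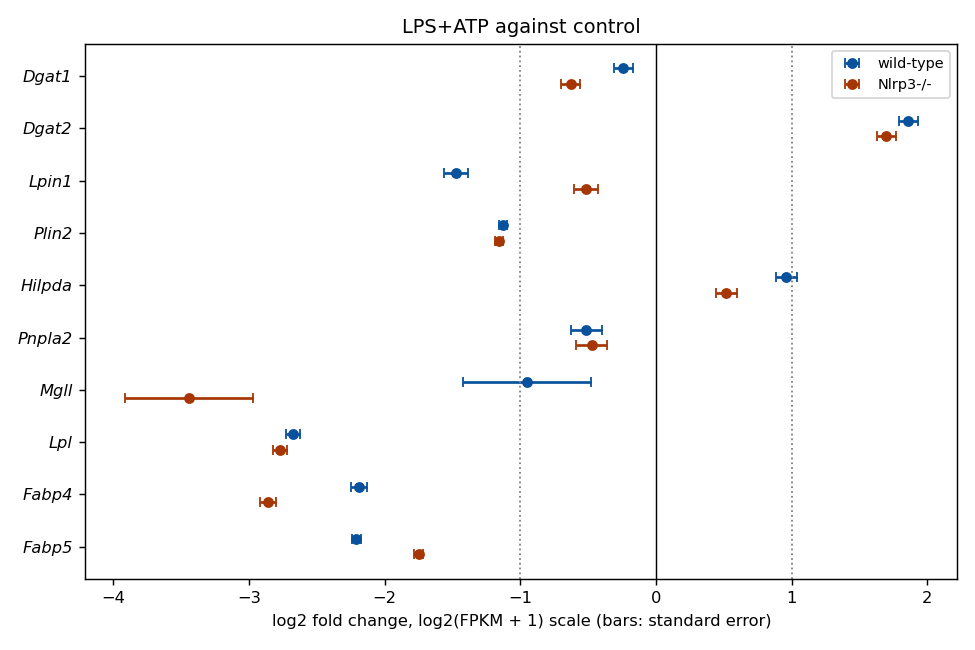
Log2 fold change of LPS+ATP against control for the 10 genes in wild-type and Nlrp3-/- BMDMs, on the log2(FPKM + 1) scale on the x axis. Points are limma estimates and bars their SE, from a fit of all 12 libraries (3 a group) with a shared spread, with 0 as a line. Lpl lies at -2.68 and -2.77 in wild-type and Nlrp3-/- BMDMs, Dgat2 at 1.86 and 1.70, and Mgll has the longest bars.

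Lpl (ENSMUSG00000015568, GRCm38 chr8:68880491-68907448, plus strand) encodes lipoprotein lipase, the secreted enzyme that frees fatty acids from circulating lipoproteins. It stood at 199, 169 and 171 FPKM in wild-type control and 27.1, 27.4 and 27.0 FPKM in wild-type LPS+ATP libraries. Nlrp3-/- libraries gave 151, 153 and 149.7 FPKM in control and 21.6, 21.3 and 21.2 FPKM with LPS+ATP. The 4 groups were apart from each other, with the stimulated libraries far lower and the Nlrp3-/- libraries below wild-type in either state. Lpl fell 6.61-fold in wild-type (log2 fold change -2.68, SE 0.05, adjusted p = 1.74e-12) and 7.08-fold in Nlrp3-/- BMDMs (-2.77, SE 0.05, adjusted p = 1.73e-12), and no difference between the responses was detected (interaction -0.09, SE 0.07, adjusted p = 0.407). The genotypes differed by less than the fold limit, by -0.24 (SE 0.05, adjusted p = 0.00248) in control and -0.33 (SE 0.05, adjusted p = 0.000271) with LPS+ATP.

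Fabp4 (ENSMUSG00000062515, GRCm38 chr3:10204088-10208576, minus strand) encodes the fatty acid-binding protein of adipocytes and macrophages, also known as aP2. Its FPKM was 41.8, 42.4 and 43.6 in wild-type control and 8.07, 8.90 and 8.81 in wild-type LPS+ATP libraries. In the Nlrp3-/- libraries it was 48.0, 45.6 and 48.7 in control and 5.32, 6.33 and 5.40 with LPS+ATP. Nlrp3-/- libraries lay above wild-type in control and below it after LPS+ATP, without overlap in either state. Fabp4 fell 4.96-fold in wild-type (log2 fold change -2.19, SE 0.06, adjusted p = 2.66e-11) and 8.34-fold in Nlrp3-/- BMDMs (-2.86, SE 0.06, adjusted p = 3.58e-12), with an interaction of -0.67 (SE 0.08, adjusted p = 0.000137). The difference between genotypes was 0.15 (SE 0.06, adjusted p = 0.0541) in control, which turned to -0.04 with median-ratio scaling, and -0.52 (SE 0.06, adjusted p = 2.11e-05) with LPS+ATP.

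Fabp5 (ENSMUSG00000027533, GRCm38 chr3:10012548-10016607, plus strand), its neighbour on chromosome 3, encodes the epidermal fatty acid-binding protein, which macrophages also make. It stood at 406, 431 and 439 FPKM in wild-type control and 91.6, 92.7 and 89.3 FPKM in wild-type LPS+ATP libraries. Values in Nlrp3-/- libraries were 288, 277 and 282 FPKM in control and 85.2, 81.7 and 83.4 FPKM with LPS+ATP. The genotypes were well apart in control, with wild-type higher, and close but not overlapping after LPS+ATP. Fabp5 fell 4.66-fold in wild-type (log2 fold change -2.21, SE 0.03, adjusted p = 2.10e-13) and 3.38-fold in Nlrp3-/- BMDMs (-1.75, SE 0.03, adjusted p = 1.90e-12), an interaction of 0.46 (SE 0.05, adjusted p = 3.24e-05). It was 1.51-fold lower in Nlrp3-/- than in wild-type control BMDMs (-0.59, SE 0.03, adjusted p = 5.88e-08) and 1.09-fold lower with LPS+ATP (-0.13, SE 0.03, adjusted p = 0.00791), both under the fold limit. The interaction terms of Fabp4 and Fabp5 thus had opposite signs. Reads of Fabp5 may be shared with near copies, so its level is uncertain. The processed pseudogene Gm6166, 98.3% identical to 41% of the Fabp5 transcript, was listed at 59.9 ± 3.15 and 14.7 ± 0.179 FPKM (SD, n = 3) in wild-type libraries without and with LPS+ATP, and at 42.5 ± 3.86 and 13.8 ± 1.79 FPKM in those of Nlrp3-/- BMDMs.

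**Figure D4:**
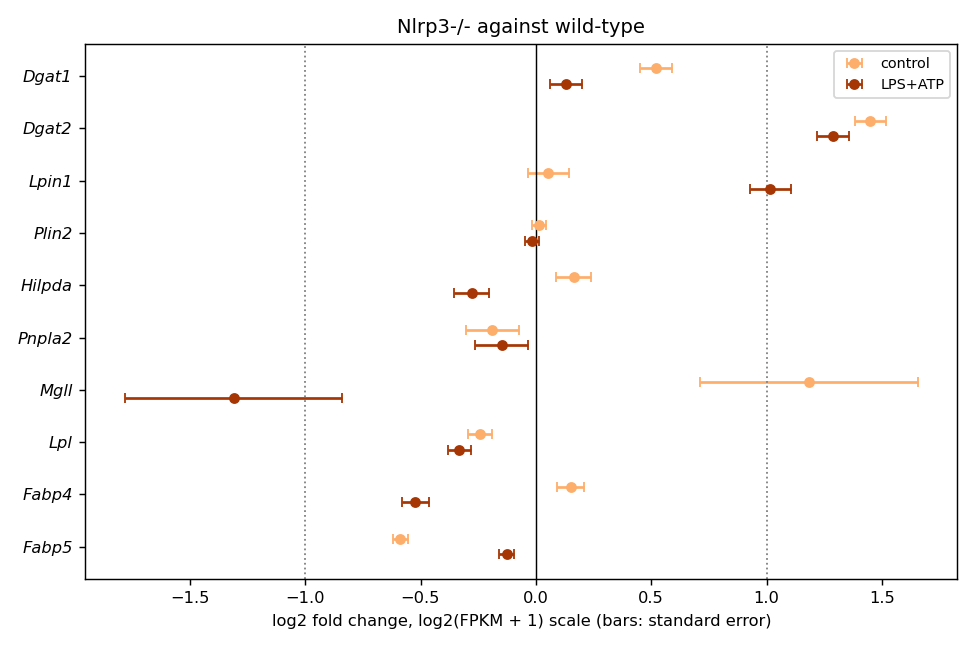
Log2 difference of Nlrp3-/- against wild-type BMDMs for the 10 genes in control and with LPS+ATP, on the log2(FPKM + 1) scale on the x axis. Points are limma estimates and bars their SE, from a fit of all 12 libraries (3 a group) with a shared spread. Dgat2 lies at 1.45 and 1.29 in control and with LPS+ATP, Lpin1 at 0.05 and 1.02, and Mgll at 1.18 and -1.31.

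The 3 genes with the widest range of group means on the log2 scale were Mgll (3.44), Dgat2 (3.15) and Lpl (3.01). The genes whose log2 values went most closely with theirs over the 12 libraries are given as a description, since the libraries share 4 groups. For Mgll they were Sh2b2 (Pearson's r 0.929), 1810044D09Rik (0.922) and Ric8a (0.921). Those for Dgat2 were Fzd1 (0.998), C2 (0.996) and Acp5 (0.996), and those for Lpl were Blvra (0.998), Fam111a (0.998) and Slk (0.997).

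Other genes of the same pathways were counted from lists. The DEG shares of all tested genes to set beside these counts are 11.2% lower and 8.25% higher with LPS+ATP in wild-type BMDMs. For Nlrp3-/- BMDMs they are 8.21% lower and 6.64% higher. Between genotypes they are 6.02% higher and 0.689% lower in control, and 4.48% higher and 0.57% lower with LPS+ATP. For the interaction they are 0.721% higher and 1.43% lower. Of 13 listed genes of triglyceride synthesis upstream of or beside the acyltransferases, 11 were tested. With LPS+ATP, 0 of the 11 were DEGs in wild-type BMDMs by limma, while 8 passed at adjusted p under 0.05 alone (5 higher, 3 lower), beside 76.4% of all tested genes, and 1 fell in Nlrp3-/- BMDMs. That gene was Mogat2, a monoacylglycerol acyltransferase, at -1.60 (SE 0.12, adjusted p = 4.06e-07), a 7.98-fold fall from 3.26 to 0.408 FPKM. Mogat2 also fell 7.51-fold in wild-type BMDMs, from 0.698 to 0.0929 FPKM. At these low levels its log2 fold change came out small (-0.62, SE 0.12, adjusted p = 0.000788), so the fall was not confined to Nlrp3-/- BMDMs. In Nlrp3-/- control BMDMs 2 of the 11 were higher than in wild-type. Agpat4, which acylates lysophosphatidate, measured 0.539 ± 0.268 FPKM (SD, n = 3) in control libraries of wild-type cells and 10.1 ± 0.364 FPKM in those of Nlrp3-/- cells (log2 difference 2.86, SE 0.11, adjusted p = 2.75e-09), and Mogat2 was higher by 1.34 (SE 0.12, adjusted p = 3.99e-06). Agpat4 was also the 1 DEG of this list with LPS+ATP, higher by 2.83 (SE 0.11, adjusted p = 4.18e-09).

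The 4 tested of 12 listed droplet coat and assembly genes gave 1 DEG with LPS+ATP in wild-type and 2 in Nlrp3-/- BMDMs, all lower. Hsd17b11, a droplet-bound dehydrogenase, fell by 1.39 (SE 0.03, adjusted p = 1.08e-11) and 1.43 (SE 0.03, adjusted p = 1.11e-11) on the log2 scale. Plin3, the perilipin that moves onto new droplets, fell by 1.01 (SE 0.05, adjusted p = 5.29e-09) in Nlrp3-/- BMDMs, at the fold limit. It also fell in wild-type BMDMs, by 0.83 (SE 0.05, adjusted p = 2.29e-08), under the limit, from 39.7 ± 0.847 to 21.98 ± 1.36 FPKM (SD, n = 3). No difference between the Plin3 responses was detected (interaction -0.18, SE 0.07, adjusted p = 0.0668). Between genotypes 0 of the 4 were DEGs in either state.

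Of the lipolysis genes and their regulators, 8 of 10 were tested, and in each genotype 2 rose and 1 fell with LPS+ATP. Gpr84, a receptor for medium-chain fatty acids, went from 2.97 ± 0.151 to 132 ± 3.24 FPKM (SD, n = 3) in wild-type BMDMs (log2 fold change 5.07, SE 0.09, adjusted p = 6.60e-13) and from 7.99 ± 1.35 to 204 ± 6.58 FPKM in Nlrp3-/- BMDMs (4.52, SE 0.09, adjusted p = 2.24e-12). Hcar2, the niacin receptor that restrains lipolysis in adipocytes, rose by 4.49 (SE 0.08, adjusted p = 8.32e-13) and 3.93 (SE 0.08, adjusted p = 3.29e-12). Lipa, the acid lipase of lysosomes, fell as well, with log2 fold changes of -1.55 (SE 0.03, adjusted p = 2.66e-12) and -1.5045 (SE 0.03, adjusted p = 4.29e-12). G0s2, an inhibitor of adipose triglyceride lipase as Hilpda is, was higher in Nlrp3-/- than in wild-type BMDMs by 1.45 (SE 0.14, adjusted p = 7.39e-06) in control and 1.02 (SE 0.14, adjusted p = 0.000139) with LPS+ATP. The study of these data also used G0s2 as a neutrophil marker, and the summed neutrophil markers above were higher in Nlrp3-/- libraries as well. The part of neutrophils in the G0s2 difference was not tested. Gpr84 was also a DEG in control, higher by 1.17 (SE 0.09, adjusted p = 6.21e-07).

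For the handling of lipoprotein lipase and fatty acid uptake, 9 of 18 listed genes were tested. In wild-type BMDMs 2 rose and 1 fell with LPS+ATP, and in Nlrp3-/- BMDMs 1 rose and 1 fell. Fabp3, the heart-type fatty acid-binding protein, went from 8.04 ± 0.903 to 57.4 ± 1.91 FPKM (SD, n = 3) in wild-type (2.70, SE 0.07, adjusted p = 3.06e-11) and from 2.98 ± 0.294 to 40.02 ± 1.505 FPKM in Nlrp3-/- BMDMs (3.37, SE 0.07, adjusted p = 6.16e-12). Fabp7, the brain-type binding protein, rose by 1.07 (SE 0.09, adjusted p = 8.51e-07) in wild-type BMDMs. It was weakly expressed, at 0.549 ± 0.212 and 2.23 ± 0.162 FPKM in wild-type control and LPS+ATP libraries. The Nlrp3-/- libraries gave 1.11 ± 0.156 and 1.15 ± 0.0363 FPKM. The rise of Fabp3 was opposite in direction to the fall of Fabp4 and Fabp5 in the same libraries. Cd36, the scavenger receptor that takes up fatty acids and oxidised lipoproteins, fell by 1.35 (SE 0.04, adjusted p = 9.30e-11) and 1.71 (SE 0.04, adjusted p = 1.62e-11). Angptl4, a secreted inhibitor of lipoprotein lipase, was higher in Nlrp3-/- control BMDMs by 1.42 (SE 0.06, adjusted p = 3.36e-09), where Fabp3 was lower (-1.18, SE 0.07, adjusted p = 1.41e-07). The responses of Angptl4 (interaction -1.235, SE 0.08, adjusted p = 1.23e-06) and of Fabp7 (-1.03, SE 0.13, adjusted p = 0.000171), differed between genotypes.

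Fatty acid activation, the joining of fatty acids to coenzyme A, was represented by 4 tested of 5 listed synthetases, of which 2 rose and 1 fell with LPS+ATP in wild-type BMDMs and 2 rose in Nlrp3-/- BMDMs. Acsl1 went from 7.45 ± 0.140 to 150.2 ± 10.4 FPKM (SD, n = 3) in wild-type (log2 fold change 4.16, SE 0.12, adjusted p = 6.36e-11) and rose by 3.73 (SE 0.12, adjusted p = 2.27e-10) in Nlrp3-/- BMDMs. Acsl5 rose by 1.54 (SE 0.03, adjusted p = 1.58e-12) and 1.53 (SE 0.03, adjusted p = 2.10e-12). Acsl3, the synthetase of nascent droplets, fell by 1.238 (SE 0.05, adjusted p = 9.80e-10) in wild-type BMDMs. It was also lower with LPS+ATP in Nlrp3-/- BMDMs (log2 fold change -0.70, SE 0.05, adjusted p = 2.04e-07), under the fold limit. After LPS+ATP Acsl3 was higher in Nlrp3-/- than in wild-type BMDMs by 1.09 (SE 0.05, adjusted p = 1.71e-08).

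Of 19 listed genes of mitochondrial entry and beta-oxidation, 18 were tested. With LPS+ATP, 6 fell and 0 rose as DEGs in wild-type and 5 fell and 0 rose in Nlrp3-/- BMDMs, where 11.2% and 8.21% of all tested genes were DEGs lower. At adjusted p under 0.05 alone 15 of the 18 were lower in each genotype, beside 53.1% and 53.8% of all tested genes. The medians of the list were -0.55 and -0.47, against -0.26 and -0.24 over all tested genes. Acaa2, a thiolase, fell by 1.89 (SE 0.07, adjusted p = 5.39e-10) and 1.73 (SE 0.07, adjusted p = 1.58e-09), Hadh, a dehydrogenase of the cycle, by 1.64 and 1.27, and Acadm, the medium-chain dehydrogenase, by 1.45 and 1.89. No gene of the list was a DEG between genotypes by limma, with 7 at adjusted p under 0.05 alone in control and 9 with LPS+ATP, beside 47.8% and 48.5% of all tested genes. Cpt1c, at low levels, was 3.70-fold higher in Nlrp3-/- than in wild-type BMDMs in control and 3.10-fold higher with LPS+ATP, without overlap. Its log2 differences came out under the fold limit, at 0.92 (SE 0.07, adjusted p = 5.39e-07) and 0.78 (SE 0.07, adjusted p = 2.79e-06).

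Of 8 listed PPAR and HIF transcription factors and coactivators, 6 were tested. Pparg, the nuclear receptor that drives many lipid storage genes, went from 11.1 ± 0.333 to 0.303 ± 0.0979 FPKM (SD, n = 3) in wild-type (log2 fold change -3.22, SE 0.07, adjusted p = 4.62e-12) and from 11.9 ± 0.818 to 0.591 ± 0.0927 FPKM in Nlrp3-/- BMDMs (-3.02, SE 0.07, adjusted p = 1.03e-11). It was the 1 DEG of the list with stimulation in each genotype. Between genotypes in control, 2 of the 6 were DEGs. Hif1a, the subunit of the hypoxia-inducible factor, measured 28.0 ± 2.43 FPKM (SD, n = 3) in control libraries of wild-type cells and 66.4 ± 0.457 FPKM in those of Nlrp3-/- cells (1.22, SE 0.05, adjusted p = 4.02e-09), and Epas1, its relative HIF-2 alpha, was higher by 1.05 (SE 0.05, adjusted p = 1.98e-08). With LPS+ATP 0 of the 6 were DEGs between genotypes by limma, and 3 were higher at adjusted p under 0.05 alone, beside 35.9% of all tested genes. These 3 stayed higher in Nlrp3-/- BMDMs without overlap, under the fold limit. They were Epas1 (2.04-fold, log2 difference 0.77, SE 0.05, adjusted p = 3.27e-07), Hif1a (1.46-fold, 0.54, SE 0.05, adjusted p = 3.79e-06) and the weakly expressed Pparg (1.95-fold, 0.29, SE 0.07, adjusted p = 0.00527).

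The median log2 fold change with LPS+ATP in wild-type BMDMs was 0.17 for triglyceride synthesis, -0.74 for droplet coat and assembly, -0.18 for lipolysis, 0.20 for lipase handling and uptake, 1.17 for activation and -0.22 for the transcription factors, beside -0.26 for all tested genes. In Nlrp3-/- BMDMs the same medians were 0.03, -0.66, -0.31, 0.03, 0.89 and -0.58, beside -0.24.

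**Figure D5:**
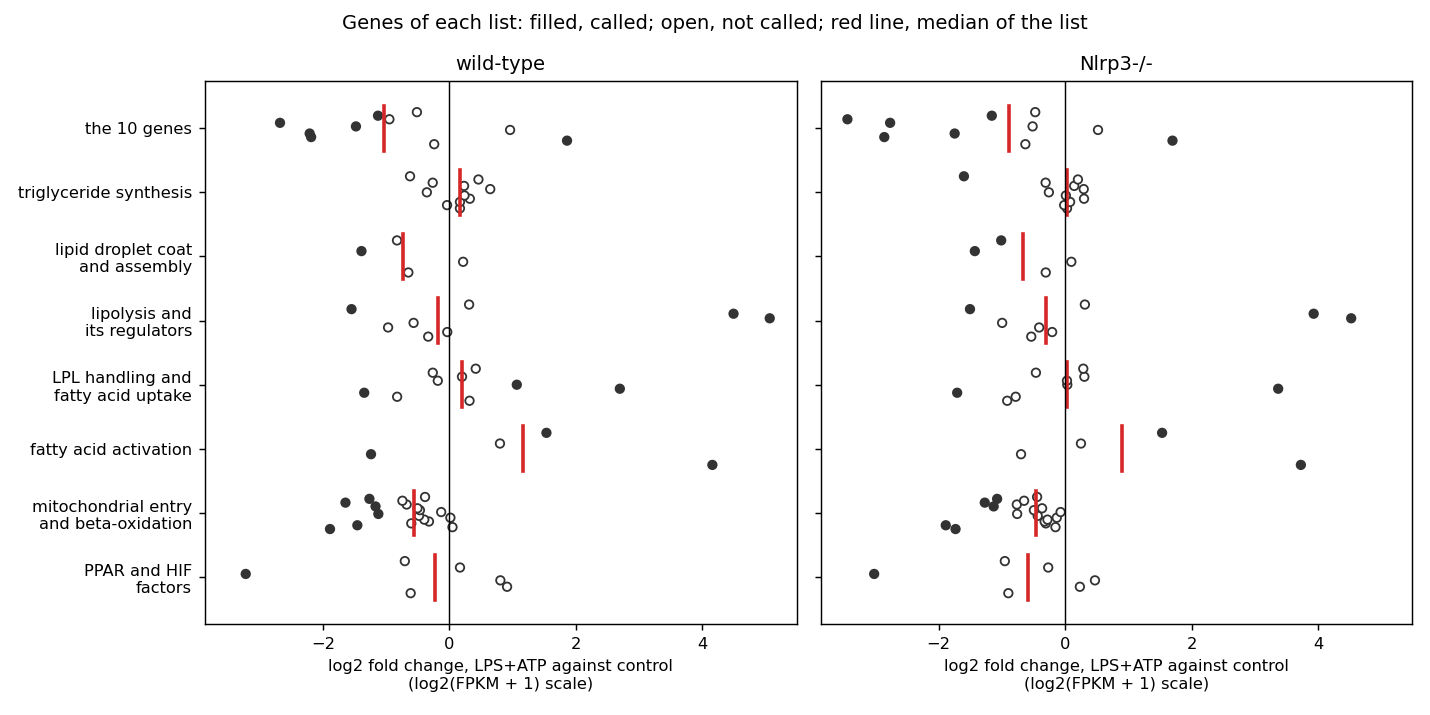
Log2 fold change of LPS+ATP against control for each tested gene of the 10 storage and lipolysis genes and of the 7 further lists, on the log2(FPKM + 1) scale on the x axis, in wild-type (left) and Nlrp3-/- BMDMs (right). Filled points are DEGs, open points are not, and the red line is the median of a list, which is -1.04 and -0.89 for the 10 genes and -0.55 and -0.47 for beta-oxidation.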

How the data were processed

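RNA of 12 BMDM libraries was sequenced, 3 in each of 4 groups named by the sample labels. The authors deposited FPKM per gene and library. The submitters' processing notes name DESeq2 1.24.0 and GRCm39 without a role, and the aligner, counter and annotation are not given in the sources used here. The values of 97.0% of genes with several transcripts, against 0.59% of genes with 1, had over 8 decimals. FPKM holds no read counts, so the depth in reads is unknown, and steps between low values gave relative depths of 1.0 to 1.22. FPKM summed to 283278 to 299393 a library, Pearson's r was 0.990 to 0.993 within groups and 0.815 to 0.964 between them, and 0 columns were left unused.

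The 12622 of 55335 genes that reached 1 FPKM in 3 or more libraries were tested with limma 3.58.1 in R 4.3.3 on log2(FPKM + 1), with 1 mean a group and a variance trend, after a test on simulated data. The 10 genes and the lists were chosen with earlier results of these data known. Of each list the DEGs were named, at most 3 a comparison. Positions came from GENCODE M21 (GRCm38) by gene ID, promoters from RefSeq, and near copies from blastn 2.17.0+ (95% identity, with 20% or more of the longest coding transcript aligned). The similarity of the Fabp4 and Fabp5 proteins was not computed here. Alternatives were a pseudocount of 0.1, no filter, FPKM of at least 5, TPM, median-ratio and upper-quartile scaling, a replicate block, the compared groups alone, no trend, no fold limit and leaving out each library.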

Additional observations from a re-analysis of the deposited data

Results flagged for a closer look

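Among the 10 genes, 6 had a response to LPS+ATP that differed between genotypes at a limma adjusted p under 0.05, as the interaction term of the fit (response of Nlrp3-/- minus response of wild-type BMDMs on the log2 scale). Over all tested genes 27.7% passed this threshold (14.7% higher, 13% lower). The term was 0.96 for Lpin1 and 0.46 for Fabp5, both of which were less reduced in Nlrp3-/- BMDMs. It was -2.49 for Mgll, -0.67 for Fabp4 and -0.39 for Dgat1, whose fold changes were the lower ones in Nlrp3-/- BMDMs, and -0.44 for Hilpda, which was raised less there. Mgll passed the fold limit as well, and Mgll is the gene with the widest spread between libraries of a group. Dgat2, whose term of -0.16 missed the threshold (adjusted p = 0.251), reached -0.85 (adjusted p = 0.00068) with a pseudocount of 0.1 in limma. The 6 terms rest on 3 libraries a group, with the sex and the supplier of the donors moving with genotype. With 3 libraries a group, no test for a single library that stands apart was run.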

How the results depend on the processing

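Counts of DEGs among the 10 genes were 6 and 6 with stimulation in wild-type and Nlrp3-/- BMDMs, 1 between genotypes in control, 3 with LPS+ATP, and 1 for the interaction. Without the fold limit these were 9, 10, 4, 7 and 6. With median-ratio scaling Plin2 was lost with stimulation in both genotypes, Hilpda was added in wild-type BMDMs, and Lpin1 was lost between genotypes with LPS+ATP. Upper-quartile scaling made the same changes, except that Plin2 was kept in Nlrp3-/- BMDMs. Hilpda was also added in wild-type BMDMs with a pseudocount of 0.1 and with TPM. The interaction gave 2 (Lpin1 added) with a pseudocount of 0.1, TPM and median-ratio scaling. As each library was left out, counts ranged from 6 to 8 with stimulation in wild-type BMDMs (Hilpda and Mgll added without wild-type control replicate 3), stayed at 6 in Nlrp3-/- BMDMs, and ranged from 1 to 2 between genotypes in control (Mgll added without wild-type LPS+ATP replicate 2 or Nlrp3-/- control replicate 3), from 1 to 3 with LPS+ATP (Lpin1 and Mgll lost without wild-type LPS+ATP replicate 3 or Nlrp3-/- LPS+ATP replicate 1 or 2) and from 1 to 2 for the interaction (Lpin1 added without replicate 1 of wild-type control or wild-type LPS+ATP or replicate 3 of Nlrp3-/- LPS+ATP). Signs of small differences turned, and the cause was not tested. With median-ratio scaling the log2 difference was -0.1846 for Plin2 (which also passed, adjusted p = 0.000816), -0.0231 for Hilpda, -0.0995 for Lpin1 and -0.0445 for Fabp4 between genotypes in control, 0.0193 for Dgat1 with stimulation in wild-type and -0.0471 for Dgat1 between genotypes with LPS+ATP. With upper-quartile scaling it was -0.0585 for Plin2 and -0.003 for Lpin1 between genotypes in control, and -0.0055 for the interaction of Pnpla2. Plin2 between genotypes with LPS+ATP kept its sign and passed the adjusted p with median-ratio (-0.2339, adjusted p = 0.000144) and upper-quartile scaling (-0.1373, adjusted p = 0.00396). With TPM, Plin2 between genotypes with LPS+ATP was 0.0046. Leaving out libraries gave -0.0057 to 0.0369 for Plin2 between genotypes in control and -0.0702 to 0.158 for the interaction of Pnpla2. Median-ratio scaling moved the median of all tested genes by 0.236, 0.233, -0.154, -0.168 and -0.0075 in the 5 comparisons.

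Over all tested genes, DEGs higher and lower were 1041 and 1411 with stimulation in wild-type, 838 and 1036 in Nlrp3-/- BMDMs, 760 and 87 between genotypes in control and 565 and 72 with LPS+ATP, and with median-ratio scaling 1391 and 896, 1097 and 601, 573 and 148, and 433 and 126. The totals of 2452, 1874, 847, 637 and 271 (interaction) became 3702, 2847, 1428, 1406 and 634 with a pseudocount of 0.1, and 9641, 9383, 6035, 6124 and 3494 without the fold limit. TPM gave 1285, 1175 and 501 for the last 3, and the filter at FPKM 5 gave 515 between genotypes in control.

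Libraries with the same replicate number did not deviate together, with correlations of -0.05655 to 0.05281 between their deviations from the group means, so the numbers were not taken as pairs. With the replicate block the counts stayed at 6, 6, 1, 3 and 1 among the 10 genes, and the same genes were called.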
